A study of Homo sapiens with 14 samples.

Results

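The zinc finger genes of chromosome 19 were taken as all genes of the count tables whose symbol is ZNF followed by a number and at most 1 letter, and whose exons all lie on chromosome 19. They numbered 263 of 59471 annotated genes, beside 296 zinc finger genes named in the same way on other chromosomes and 2699 other genes of chromosome 19. RNA was sequenced from SCC23, an established head and neck squamous cell carcinoma line, in 14 libraries that cross the KMT2D genotype with the glucose supply. KMT2D-KO cells came from transfection with a plasmid that carries Cas9, GFP and a guide against KMT2D, with a different guide for each of the lines KO1 and KO2. The same plasmid with a guide against LacZ was the control of that step, and whether the sequenced KMT2D-WT libraries came from it or from untransfected cells is not stated. GFP-positive cells were collected by sorting as a population of many cells for further culture, and a later step of single-cell cloning is not given in the sources used here. Cells were kept in high glucose medium (+Glc) or went without glucose for 6 h (-Glc). The groups held 3 KMT2D-WT +Glc, 4 KMT2D-KO +Glc, 3 KMT2D-WT -Glc and 4 KMT2D-KO -Glc libraries, spread over 2 experiments, with 1 KMT2D-WT library per glucose condition in experiment 1. No label says which libraries came from separate cultures, so p-values measure the spread between these libraries.

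Most chromosome 19 zinc finger proteins are DNA binding repressors of the KRAB family. Their tandem C2H2 fingers read DNA, often within retroelements, and the KRAB domain recruits TRIM28 (KAP1), which brings SETDB1 to deposit H3K9me3 and HP1 proteins to hold it. The genes arose by repeated local duplication and lie in tandem clusters. KMT2D, the targeted gene, is a histone methyltransferase that places H3K4me1 at enhancers. The comparisons ask how these genes differed between the genotypes in each glucose condition, and whether any difference was shared by genes of like exonic length.

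Several libraries need care before the values are read. Total counts were 15669154 to 22379432 in the 6 libraries of experiment 1, 55962793 to 62968057 in the 4 +Glc libraries of experiment 2, for which both mates of each pair were counted, and 23615127 to 31074996 in the 4 -Glc libraries of experiment 2. The experiment was therefore a covariate in the fits reported here, except where an alternative is named. Within experiment 2 without glucose, the 2 KMT2D-WT libraries differed from each other by a chi-square per gene of 1.65 and the 2 KMT2D-KO libraries by 1.71, against 23.0 to 72.7 for the other pairs, so each of these pairs may be close to a single culture. The second of these pairs is labelled KO1 and KO2, but the count columns of both libraries carry the name KO2, and over 44 genes that separate the lines both libraries lay nearer KO2 (mean distance 0.395 and 0.438 on the log2 scale) than KO1 (3.07 and 3.10). KMT2D mRNA was 279, 266 and 271 CPM (counts scaled by TMM to a common library total) in KMT2D-WT +Glc, 182 and 184 CPM in KO1 +Glc, and 323 and 373 CPM in KO2 +Glc. Without glucose it was 239, 233 and 231 CPM in KMT2D-WT and 19.9, 190, 152 and 145 CPM in KMT2D-KO, so the mRNA did not mark the genotype in every library with glucose. Of 10 squamous markers 6 stood at 10 CPM or more in every library, and the leukocyte markers PTPRC and CD3E stayed under 0.1 CPM. The summed level of 5 fibroblast markers moved with the genotype, from 5.76 to 7.09 CPM in KMT2D-WT and 12.5 to 21.4 CPM in KMT2D-KO with glucose, and from 3.21 to 5.58 and 7.37 to 14 CPM without it. The sum of 3 endothelial markers was 0.388 to 0.800 CPM in KMT2D-WT and 2.19 to 3.31 CPM in KMT2D-KO without glucose, with overlap between the genotypes with glucose. Only 1 of the 5 fibroblast markers and 1 of the 3 endothelial markers averaged at least 1 CPM, so each sum rests largely on 1 gene. The part of these low signals in the differences of the members was not tested.

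Of the 263 members, 246 were protein-coding in GENCODE, 15 were pseudogenes and 2 were not matched by name. A motif of the KRAB A box was found in 204 of the 246 proteins and was absent from 42, a SCAN motif was found in ZNF444 and ZNF446, and the median number of C2H2 fingers was 12 (range 1 to 36). The search was by a short motif, so a protein without a match may still hold a KRAB domain. Median exonic length was 5069 bases, against 2031 bases for genes with other names and at least 1 count. Median exonic GC content was 43.0% against 47.3%. The KRAB motif genes had a median GC of 42.6% and the others 58.1%.

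Members were weakly expressed. In all, 255 had at least 1 count, 8 had none, and together they took 0.124 to 0.278% of the counts of a library. For the 185 members that passed the low count filter with glucose, the median was 1.39 CPM per kb of exon, against 3.84 CPM per kb for 5886 non-ZNF genes of like exonic length (within the interquartile range of the members, 3624.5 to 6943 bases). The highest levels were those of ZNF787 (22.2 CPM per kb), ZNF146 (21.1), ZNF581 (16.5), ZNF317 (15.8), ZNF121 (9.73), ZNF428 (8.72), ZNF266 (8.57) and ZNF865 (8.01). Of these 8 genes only ZNF317 and ZNF266 carried the KRAB motif, and KRAB motif genes had a median of 1.24 CPM per kb against 3.77 CPM per kb for members without it. The 78 members tested in neither genotype comparison all had a mean at or under 0.225 CPM.

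With glucose, chromosome 19 zinc finger genes were lower in KMT2D-KO cells more often than higher. In edgeR (quasi-likelihood fit, Benjamini-Hochberg adjusted p under 0.05), 24 of 185 members were lower, a share of 13.0% beside 11.7% of all 20423 genes tested, and 2 were higher, a share of 1.08% beside 13.0% of all genes. The share of lower calls was thus near that of all genes, and the share of higher calls was below it. The median log2 fold change was -0.20 over members and 0.02 over all genes, and 139 of the 185 members had a negative value. Without replicate 1, 2 or 3 of KMT2D-WT the number of lower members was 11, 11 and 12, and the number of higher members was 1 without replicate 1 of KMT2D-WT and 3 without replicate 4 of KMT2D-KO. Every KMT2D-KO library lay below every KMT2D-WT library for 27 members (14.6%), beside 10.4% of all genes. RNA from a mass of cells was measured, so fewer cells of a type and less RNA per cell cannot be told apart.

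The largest decrease that also stood above a mean of 1 CPM was that of ZNF737, a KRAB motif gene with 13 fingers (chr19:20535825-20565809, minus strand). It stood at 1.65, 3.76 and 5.29 CPM in KMT2D-WT cells and at 0.123, 0.145, 0.0912 and 0 CPM in KMT2D-KO cells. Behind these levels were 39, 254 and 313 counts in KMT2D-WT and 2, 3, 6 and 0 counts in KMT2D-KO, and the groups did not overlap. The log2 fold change was -5.57 (SE 0.68, adjusted p = 0.000599, edgeR). ZNF556, with 9 fingers (chr19:2867335-2883445, plus strand), stood at 2.87, 3.48 and 3.72 CPM in KMT2D-WT and at 0.246, 0, 0.213 and 0.119 CPM in KMT2D-KO. It too was near 0 in all 4 knockout libraries, whichever line they came from (log2 fold change -4.47, SE 0.45, adjusted p = 0.000239, edgeR). ZNF558, with 9 fingers (chr19:8806170-8832314, minus strand) and known as a repressor of SPATA18 in neural progenitors, fell from 17.1, 23.3 and 21.8 CPM to 5.84, 2.90, 8.80 and 5.69 CPM. All 4 knockout libraries lay below the lowest KMT2D-WT library (log2 fold change -1.76, SE 0.23, adjusted p = 0.000901, edgeR). These calls held in every alternative fit that tested them. In both glucose conditions ZNF737 and ZNF556 passed the low count filter and the mean of 1 CPM only through their KMT2D-WT libraries. These genes were named for the size of their decrease, so their calls are not separate support for it.

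**Figure D1:**
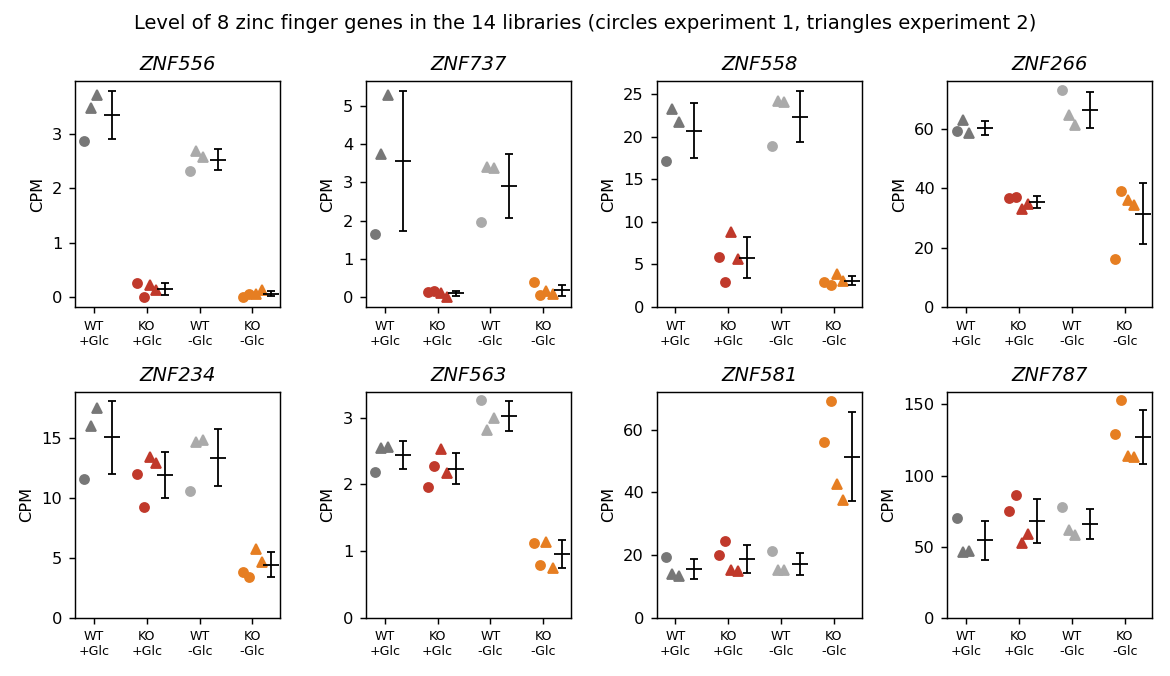
Level of 8 members in CPM (vertical axis) in the 4 groups, 1 point per library (circles experiment 1, triangles experiment 2), with the mean and SD of each group as a bar beside the points. ZNF556 and ZNF737 are near 0 in every KMT2D-KO library, ZNF234 and ZNF563 are lowest in the 4 KMT2D-KO -Glc libraries, and ZNF581 and ZNF787 are highest there.

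Promoters of these 3 genes are shown because they had the largest decreases that held in both glucose conditions. The lines give the 200 bases before the RefSeq start (GRCh38.p14), 5′ to 3′ on the strand of the gene, at chr19:2867135-2867334 for ZNF556, chr19:20565782-20565981 for ZNF737 and chr19:8832305-8832504 for ZNF558. Capitals mark CCAAT or its complement ATTGG (the letters of a CCAAT box) and CCGGAAG or its complement CTTCCGG (the letters of an ETS site).
ZNF556: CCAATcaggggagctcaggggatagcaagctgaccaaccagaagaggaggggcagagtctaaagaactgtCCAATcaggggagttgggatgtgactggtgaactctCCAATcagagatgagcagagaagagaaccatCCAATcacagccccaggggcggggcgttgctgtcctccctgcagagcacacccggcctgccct
ZNF737: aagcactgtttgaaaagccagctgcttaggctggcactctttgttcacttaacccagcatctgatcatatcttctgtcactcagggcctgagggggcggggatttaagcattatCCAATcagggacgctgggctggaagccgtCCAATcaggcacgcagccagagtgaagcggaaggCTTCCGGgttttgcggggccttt
ZNF558: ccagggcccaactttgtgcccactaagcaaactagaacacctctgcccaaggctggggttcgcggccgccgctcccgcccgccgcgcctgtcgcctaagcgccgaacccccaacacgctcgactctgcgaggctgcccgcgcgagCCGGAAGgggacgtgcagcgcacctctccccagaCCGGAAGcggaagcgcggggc
In these lines ZNF556 held 4 CCAAT matches and no CCGGAAG match, ZNF737 held 2 and 1, and ZNF558 held 0 and 2. Both motifs were common among the members as a whole. Over 300-base RefSeq windows (250 bases before the start and 50 after it), which were given for 216 members, CCAAT on either strand occurred in 53.7% of members and 34.6% of all 35116 promoters, and CCGGAAG in 45.4% and 10.3%. ZNF genes of other chromosomes held CCGGAAG in 28.5% of 288 promoters. With glucose, beside 11.7% of all genes, 7 of 88 tested members with CCAAT and 12 of 70 without it were lower, and 7 of 71 with CCGGAAG and 12 of 87 without it, and the medians of the log2 fold change in these 4 classes were -0.17, -0.18, -0.19 and -0.18. A match describes letters and is not a measured binding site.

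The other decreases named by size were smaller. ZNF114 fell by 1.14 on the log2 scale, ZNF235 by 1.02, ZNF699 by 0.93, ZNF333 by 0.93 and ZNF358 by 0.89, with adjusted p (edgeR) of 0.0199, 0.0213, 0.00288, 0.00679 and 0.00257. ZNF266, among the most abundant KRAB motif members, stood at 59.2, 62.9 and 58.8 CPM in KMT2D-WT and 36.9, 37.0, 32.9 and 34.7 CPM in KMT2D-KO. Its libraries were tight within each genotype and did not overlap (log2 fold change -0.78, SE 0.09, adjusted p = 0.00041, edgeR). The calls of ZNF114 and ZNF235 were lost without any 1 of the 3 KMT2D-WT libraries (adjusted p 0.0605 to 0.111, edgeR), that of ZNF235 also without replicate 4 of KMT2D-KO (0.0625), and that of ZNF333 without replicate 1 of KMT2D-WT (0.0752). For ZNF358, 34.1% of exonic bases lie in another gene, and for ZNF235 23.3%. The counting ignored strand, so reads of such overlaps cannot be assigned to 1 gene.

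Both members that rose with glucose lacked the KRAB motif. ZNF121 stood at 38.8, 87.0 and 84.1 CPM in KMT2D-WT and 66.4, 57.9, 125 and 121 CPM in KMT2D-KO. Within each experiment the knockout libraries were the higher ones, while the groups overlapped across experiments (log2 fold change 0.59, SE 0.09, adjusted p = 0.00157, edgeR). ZNF146, a protein that consists almost wholly of zinc fingers, rose by 0.41 on the log2 scale (SE 0.09, adjusted p = 0.0127, edgeR), and that call was lost without replicate 1 of KMT2D-WT (adjusted p = 0.144, edgeR). Among KRAB motif members, 17 of 145 were lower by edgeR, a share of 11.7% equal to that of all genes, and 0 were higher. DESeq2 called 23 and 0, and 2 had a positive difference at an unadjusted edgeR p under 0.05.

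Without glucose more members passed as lower, as did more of all genes. By the same edgeR test 71 of 172 members (41.3%) were lower in KMT2D-KO cells, beside 24.9% of all 16782 genes, and 14 (8.14%) were higher, beside 25.9%. The median over members was -0.34 on the log2 scale, and 128 had a negative value. For 50 members (29.1%) every KMT2D-KO library lay below every KMT2D-WT library, beside 18.9% of all genes. With library size alone as the scaling, the median of all genes moved from 0.00 to -0.25 and the split of members became 101 lower and 6 higher, while the members' median relative to all genes was -0.34 under either scaling. Where the close pairs of experiment 2 were summed to 1 library each, 21 members were lower and 2 higher. Leaving out single libraries gave 41 to 93 lower members, the highest number without replicate 1 of KMT2D-KO and the lowest without replicate 1 of KMT2D-WT. Low numbers were also reached without replicate 2 (47) or 3 (46) of KMT2D-WT and without replicate 3 (46) or 4 (43) of KMT2D-KO. The number of higher members was 5 to 7 without any 1 of those 5 libraries and 25 without replicate 1 of KMT2D-KO.

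Without glucose ZNF556 stood at 2.31, 2.70 and 2.57 CPM in KMT2D-WT and at 0, 0.0561, 0.0475 and 0.126 CPM in KMT2D-KO. ZNF558 stood at 18.9, 24.1 and 24.1 CPM against 2.95, 2.58, 3.84 and 3.06 CPM. Both were again separated by genotype in every library, with log2 fold changes of -5.21 (SE 0.42, adjusted p = 0.000145, edgeR) and -2.81 (SE 0.13, adjusted p = 3.6e-05, edgeR), and ZNF737 changed by -4.15 (SE 0.51, adjusted p = 0.00076, edgeR). A second set of KRAB motif genes was low in KMT2D-KO cells here but had not passed the test with glucose. ZNF563 stood at 3.26, 2.81 and 3.0 CPM in KMT2D-WT and 1.13, 0.785, 1.14 and 0.753 CPM in KMT2D-KO (log2 fold change -1.70, SE 0.23, adjusted p = 0.00114, edgeR). ZNF234, with 18 fingers, stood at 10.6, 14.6 and 14.8 CPM against 3.82, 3.36, 5.74 and 4.65 CPM (log2 fold change -1.54, SE 0.13, adjusted p = 0.000163, edgeR). Both genes separated the genotypes without overlap, and ZNF559 and ZNF284, which had not passed with glucose either, fell by 1.57 and 1.60 on the log2 scale. Whether the effects of ZNF234, ZNF559 and ZNF284 differed between the glucose conditions is not reported here. ZNF112, lower in both conditions, fell by 0.65 with glucose and 1.65 without. ZNF284 shares 44% of its exonic bases with another gene, and its call was lost with the close pairs summed (adjusted p = 0.0636, edgeR).

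Among the 14 members that were higher without glucose, 8 lacked the KRAB motif and 6 held it, 8 had an exonic GC of 50% or more, and 9 lay in the last cluster before the end of the long arm. Those without the motif were 25% of 32 tested and those of high GC 26.7% of 30, near the 25.9% of all genes. The 9 of the last cluster were out of 46 tested, a share under that of all genes. ZNF581, with 4 fingers (chr19:55635459-55645623, plus strand), stood at 21.2, 15.1 and 15.2 CPM in KMT2D-WT -Glc and 56.1, 69.3, 42.7 and 37.7 CPM in KMT2D-KO -Glc. Each knockout library was above every KMT2D-WT library (log2 fold change 1.45, SE 0.10, adjusted p = 0.000105, edgeR). ZNF787, the most abundant member per kb (chr19:56087366-56121295, minus strand), stood at 78, 61.4 and 58.0 CPM against 129, 153, 114 and 113 CPM (log2 fold change 0.88, SE 0.07, adjusted p = 0.000145, edgeR). Its groups did not overlap either. ZNF628 rose by 1.10, ZNF784 by 0.90 and ZNF579 by 0.64 on the log2 scale, all 3 without the motif and with a GC of 64.5% to 70.8%.

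Among KRAB motif members the largest increase was that of ZNF460, at 5.26, 2.84 and 2.26 CPM in KMT2D-WT and 7.84, 22.0, 19.1 and 14.9 CPM in KMT2D-KO. The lowest knockout library was replicate 1 and the 4 libraries lay above the KMT2D-WT range (log2 fold change 2.2, SE 0.41, adjusted p = 0.0041, edgeR). ZNF93, known to bind and restrain LINE-1 elements, rose by 0.67 (SE 0.11, adjusted p = 0.00223, edgeR), and ZNF675 by 0.57 (SE 0.19, adjusted p = 0.0401, edgeR). With the close pairs summed, the calls of ZNF460, ZNF628, ZNF784, ZNF93, ZNF579 and ZNF675 were lost (adjusted p 0.0552 to 0.236, edgeR), and those of ZNF581 and ZNF787 held. ZNF675 also lost its call without any 1 of 5 libraries, the 3 of KMT2D-WT and replicates 3 and 4 of KMT2D-KO (adjusted p 0.10 to 0.136, edgeR), ZNF579 without any 1 of the 3 of KMT2D-WT or replicate 3 of KMT2D-KO (0.0574 to 0.0790), and ZNF628 without replicate 1 or 2 of KMT2D-WT (0.0606 and 0.0525). With library size alone as the scaling, ZNF675 stood at 0.32 and ZNF579 at 0.39 and both calls were lost (adjusted p = 0.208 and 0.112, edgeR), while ZNF93 stood at 0.42 and kept its call.

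Promoters of the pair of members without the KRAB motif whose rise held in every alternative are shown beside those above, in the same form, at chr19:55643449-55643648 for ZNF581 and chr19:56121296-56121495 for ZNF787. ZNF581 held no match to either motif, and ZNF787 held 2 overlapping CCGGAAG matches on opposite strands.
ZNF581: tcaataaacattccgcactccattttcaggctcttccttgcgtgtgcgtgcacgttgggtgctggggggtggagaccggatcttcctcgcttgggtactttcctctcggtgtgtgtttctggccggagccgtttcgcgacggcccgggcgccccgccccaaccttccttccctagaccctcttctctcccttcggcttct
ZNF787: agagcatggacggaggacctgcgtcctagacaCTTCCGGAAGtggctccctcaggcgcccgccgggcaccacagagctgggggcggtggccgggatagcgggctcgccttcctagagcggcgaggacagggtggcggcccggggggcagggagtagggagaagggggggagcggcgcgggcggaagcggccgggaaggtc
Without glucose, 30 of 84 tested members with CCAAT (35.7%) and 29 of 66 without it (43.9%) were lower, and 26 of 68 with CCGGAAG (38.2%) and 33 of 82 without it (40.2%), beside 24.9% of all genes. The medians of these 4 classes were -0.28, -0.36, -0.32 and -0.34.

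Members were also counted by the KRAB motif. Without glucose 62 of 135 KRAB motif members were lower (45.9%, beside 24.9% of all genes) and 6 higher (4.44%, beside 25.9%), with a median of -0.42. Of 32 members without the motif 6 were lower (18.8%) and 8 higher (25%, near the share of all genes), with a median of 0.08. With glucose 17 of 145 with the motif (11.7%) and 6 of 33 without it (18.2%) were lower, beside 11.7% of all genes, and the medians were -0.22 and -0.05. The difference between these classes was not tested. By composition, 68 of 142 members under 50% GC were lower and 6 higher without glucose, against 3 of 30 lower and 8 higher at 50% or more, where the 26.7% higher was near the 25.9% of all genes. The motif and GC content overlapped as classes, and their parts in the difference were not tested. For non-ZNF genes of like exonic length the medians without glucose were -0.05 under 50% GC and 0.00 at 50% or more. Members with 14 or more fingers were lower in 29 of 62 cases, those with 10 to 13 in 22 of 56 and those with up to 9 in 17 of 49.

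**Figure D2:**
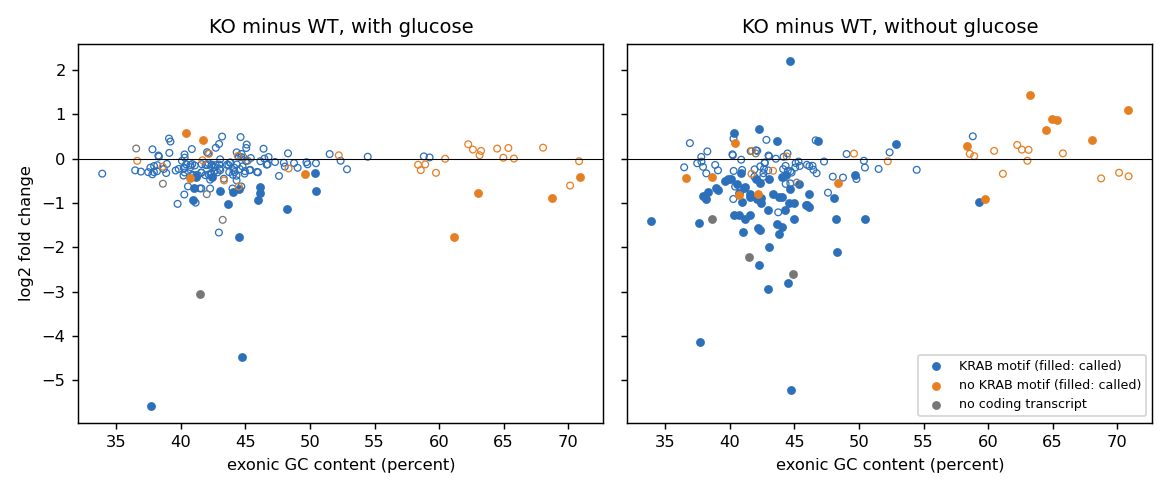
Log2 fold change of each tested member, KMT2D-KO minus KMT2D-WT (vertical axis), against its exonic GC content in percent (horizontal axis), with glucose (left) and without (right); filled points passed the edgeR test and colours give the KRAB motif. Without glucose the decreases crowd under 50% GC, where 68 of 142 members were lower and 6 higher. At 50% or more lie 8 of the 14 increases, 26.7% of the 30 members tested there, near the 25.9% of all genes.

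Genes of like exonic length were set beside the members, and the difference between these classes was not tested. With glucose 833 of 5886 such genes were lower (14.2%, beside 13.0% of members) and 949 higher (16.1%, beside 1.08%), with a median of 0.01. Without glucose 1388 of 5223 were lower (26.6%, beside 41.3% of members) and 1400 higher (26.8%, beside 8.14%), with a median of -0.03. The members' median minus theirs was -0.21 with glucose and -0.32 without glucose on the log2 scale, and an offset for exonic length in each library left these gaps at -0.21 and -0.31. In 5 bins of exonic length over all genes tested, the members' median without glucose was -0.38, -0.28, -0.36 and -0.46 from the second to the longest bin, against 0.04, 0.00, -0.04 and -0.17 for non-ZNF genes. The shortest bin held 7 members, with a median of 0.12 against 0.31. With glucose the members' medians in the 4 bins that held any were -0.21, -0.16, -0.25 and -0.18, against 0.06, 0.02, 0.01 and -0.03.

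Zinc finger genes of other chromosomes were also lower more often than higher without glucose. Without glucose 90 of 226 were lower (39.8%, beside 24.9% of all genes) and 25 higher (11.1%, beside 25.9%), with a median of -0.25. With glucose 27 of 230 were lower (11.7%) and 29 higher (12.6%), near the 11.7% and 13.0% of all genes, with a median of -0.06. The other genes of chromosome 19 went the other way without glucose. Of 837, 176 were lower (21.0%, beside 24.9% of all genes) and 264 higher (31.5%, beside 25.9%), with a median of 0.06. The difference between these classes and the members was not tested.

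**Figure D3:**
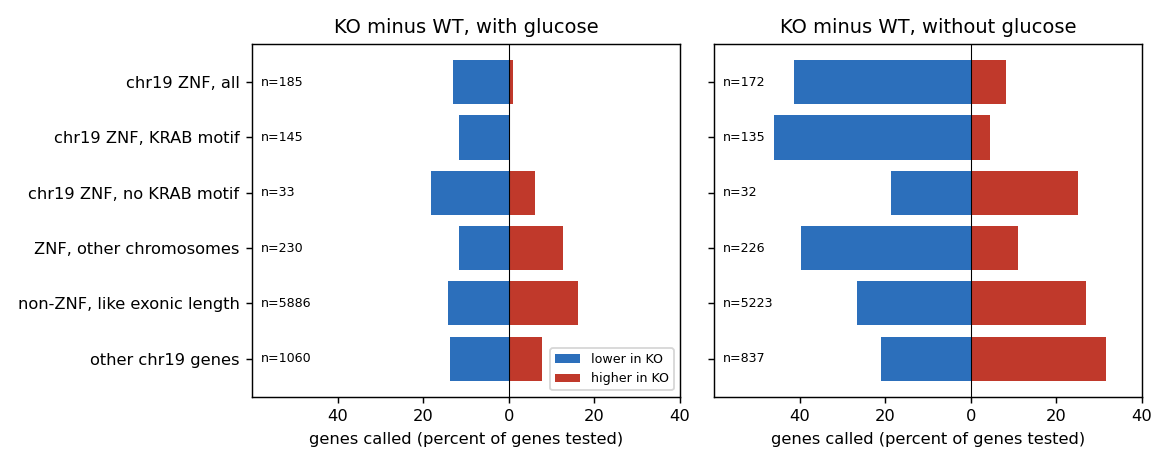
Genes called lower (blue, to the left) or higher (red, to the right) in KMT2D-KO cells by edgeR, as percent of the genes tested in each class (horizontal axis), with glucose (left panel) and without (right panel); n is the number of genes tested. Without glucose 41.3% of the members and 39.8% of ZNF genes on other chromosomes were lower, against 26.6% of non-ZNF genes of like exonic length.

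Library by library, the median log2 difference of 172 members from the KMT2D-WT libraries of the same experiment was -0.07 and -0.13 in KMT2D-KO +Glc of experiment 1 and -0.21 and -0.25 in experiment 2. Without glucose it was -0.62 and -0.22 in experiment 1 and -0.29 and -0.21 in experiment 2. All 8 knockout libraries were below 0, and replicate 1 of KMT2D-KO -Glc was the lowest. That library had the least KMT2D mRNA and was the only knockout library without glucose nearer KO1. With glucose the order was the other way, as KO1 had less KMT2D mRNA than KO2 but the smaller fall in each experiment. The part of the KMT2D mRNA level was not tested. Genes of like exonic length stayed between -0.06 and 0.03 in the same libraries. Zinc finger genes of other chromosomes were at 0.02, -0.04, -0.07 and -0.06 with glucose and at -0.50, -0.22, -0.20 and -0.19 without, where they lay close to the members. In experiment 1 alone, with 1 KMT2D-WT library and no test given for it, the median over members was -0.11 with glucose and -0.45 without.

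**Figure D4:**
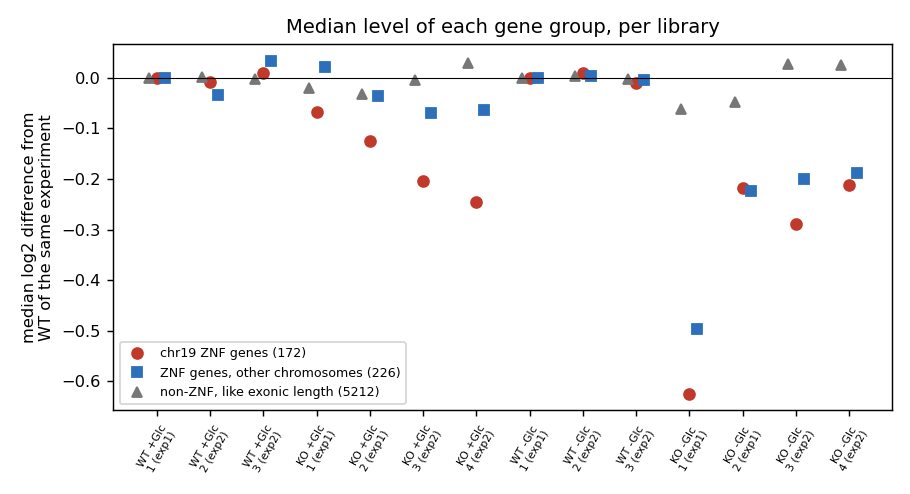
Median log2 difference of each gene class from the KMT2D-WT libraries of the same experiment and glucose condition (vertical axis), for each of the 14 libraries (horizontal axis). Chromosome 19 zinc finger genes (red circles) are below 0 in all 8 KMT2D-KO libraries, from -0.07 to -0.62, and genes of like exonic length (grey triangles) lie between -0.06 and 0.03.

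The 2 genotype comparisons share no library, so their lists can be set side by side. Of 172 members tested in both, 17 were lower in both, which is 70.8% of the 24 lower with glucose and 23.9% of the 71 lower without it. Over all 16460 genes tested in both conditions the corresponding shares were 71.6% and 39.2%, and 9.94% of all genes and 9.88% of members were lower in both, so the overlap was not larger than over all genes. The 17 members were ZNF112, ZNF114, ZNF221, ZNF226, ZNF235, ZNF264, ZNF266, ZNF333, ZNF45, ZNF542P, ZNF554, ZNF556, ZNF558, ZNF699, ZNF737, ZNF878 and ZNF888. ZNF121 was higher in both, and no member was called in opposite directions. Over the 172 members Spearman's rho between the log2 fold changes was 0.44, a description over genes that share libraries and are not independent.

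Whether the genotype difference itself depended on glucose was tested as an interaction over all 14 libraries. By edgeR 20 of 181 members had a lower effect without glucose, beside 6.54% of all 18678 genes, and 8 (4.42%) a higher one, beside 4.73%. Zinc finger genes of other chromosomes had a lower effect in 38 of 227 cases (16.7%) with a median of -0.21, and their difference from the members was not tested. The close pairs of experiment 2 enter this test as separate libraries. In KMT2D-KO -Glc, replicates 2, 3 and 4 lay nearer KO2 and only replicate 1 nearer KO1, whereas the labels of KMT2D-KO +Glc give both lines in each experiment. The knockout lines are thus not balanced between the glucose conditions, and the part of the line difference was not tested. With each pair summed, 3 members had a lower and 1 a higher effect (30 and 13 at an unadjusted p under 0.05, edgeR). With an offset for exonic length the split was 18 and 14, for length and GC 18 and 14 and for GC 16 and 14, and the median over members moved from -0.18 to -0.07, -0.06 and -0.09. ZNF563 showed the pattern plainly, at 2.19, 2.55 and 2.57 CPM in KMT2D-WT and 1.97, 2.27, 2.54 and 2.18 CPM in KMT2D-KO while glucose was present, where the groups overlapped. The difference of the effects was -1.59 (SE 0.29, adjusted p = 0.00617, edgeR). ZNF132, reported as methylated and silenced in some carcinomas, gave -2.21 (SE 0.43, adjusted p = 0.00798, edgeR), and ZNF547 -1.92 (SE 0.45, adjusted p = 0.0186, edgeR). For the pseudogene ZNF321P, with 40.2% of its exonic bases in another gene, it was -2.61 (SE 0.57, adjusted p = 0.0143, edgeR). These last values rest on few counts in KMT2D-KO -Glc. They were 2, 6, 13 and 7 for ZNF132, 4, 2, 9 and 8 for ZNF547, and 0, 6, 6 and 9 for ZNF321P. The size of these differences is therefore loosely measured.

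In the other direction ZNF581 gave 1.30 (SE 0.15, adjusted p = 0.000488, edgeR) and ZNF93 1.04 (SE 0.20, adjusted p = 0.00755, edgeR). ZNF460 gave 1.75 (SE 0.47, adjusted p = 0.0336, edgeR) and ZNF628 1.19 (SE 0.33, adjusted p = 0.0363, edgeR). With the close pairs summed, ZNF132 and ZNF581 kept their calls and the other 6 named here lost theirs (adjusted p 0.0529 to 0.172, edgeR). Single libraries decided some of these calls too. ZNF321P lost its call without replicate 1 of KMT2D-WT -Glc (adjusted p = 0.0820, edgeR) and stood at 0.05 without replicate 1 of KMT2D-WT +Glc. ZNF547 lost its call without replicate 1 of KMT2D-WT -Glc or replicate 1 or 2 of KMT2D-WT +Glc (adjusted p 0.0515 to 0.102, edgeR). ZNF460 lost its call without any 1 of 9 libraries, namely the 3 of KMT2D-WT +Glc, replicates 2 and 3 of KMT2D-WT -Glc and replicates 3 and 4 of KMT2D-KO in both conditions (0.0595 to 0.0985). In experiment 1 alone, the value of ZNF460 was 0.63 and that of ZNF547 was -2.91, with no test read for either. ZNF628 lost its call without any 1 of 10, namely all 6 of KMT2D-WT, replicates 2 and 3 of KMT2D-KO +Glc and replicates 3 and 4 of KMT2D-KO -Glc (0.0529 to 0.146). In experiment 1 alone, where all libraries are single-end, the median over members was -0.38. That experiment holds 1 KMT2D-WT library per glucose condition, too few for its calls to be read. Single libraries moved the number of lower members between 5 (without replicate 1 of KMT2D-WT -Glc) and 33 (without replicate 1 of KMT2D-KO -Glc). It was 6 without replicate 1 and 9 without replicate 2 of KMT2D-WT +Glc, 10 without replicate 2 and 12 without replicate 3 of KMT2D-WT -Glc, and 10 without replicate 3 and 13 without replicate 4 of KMT2D-KO -Glc. The number of higher members was 20 without replicate 1 of KMT2D-KO -Glc and 3 to 5 without any 1 of 10 others, namely all 6 of KMT2D-WT, replicates 2 and 3 of KMT2D-KO +Glc and replicates 3 and 4 of KMT2D-KO -Glc.

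Deprivation itself was compared within each genotype. In KMT2D-WT cells, by edgeR, 12 of 183 members (6.56%) were lower without glucose, beside 7.58% of all 17227 genes, and 4 (2.19%) higher, beside 7.15%. ZNF333 rose from 5.40, 4.71 and 5.88 CPM to 10.4, 8.71 and 10.3 CPM, with no overlap (log2 fold change 0.89, SE 0.15, adjusted p = 0.0269, edgeR). ZNF836 fell by 0.81, ZNF850 by 0.80, ZNF653 by 0.69 and ZNF551 by 0.62, and ZNF441, ZNF529 and ZNF787 rose by 0.60, 0.59 and 0.30. Some of these values moved with offsets chosen after seeing the data. With the offset for exonic length and GC content ZNF653 changed by -0.40 and lost its call (adjusted p = 0.134, edgeR), while ZNF787 rose by 0.72. With the offset for GC content alone the calls of ZNF333, ZNF441 and ZNF529 were lost (adjusted p 0.0632 to 0.0699, edgeR). The number called went to 0 without any 1 of the 4 libraries of experiment 2 (23 to 40 at an unadjusted p under 0.05, edgeR) and to 80 or 81 without either library of experiment 1. DESeq2 called 45. With the close pair summed 0 passed (26 at an unadjusted p under 0.05, edgeR). Read layout differed between the glucose conditions in experiment 2, and in experiment 1 the median over members was 0.00, against -0.11 over both.

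In KMT2D-KO cells, with 4 libraries per condition against 3 in KMT2D-WT, more members and more of all genes passed, and the difference between these counts was not tested. By edgeR 53 of 165 members (32.1%) were lower, beside 16.0% of all 16057 genes, and 17 (10.3%) higher, beside 14%. ZNF302 stood at 14.1, 12.3, 29.2 and 29.1 CPM with glucose and 5.52, 4.15, 6.74 and 7.07 CPM without, and within each experiment both libraries without glucose lay below both with it (log2 fold change -1.79, SE 0.18, adjusted p = 0.00115, edgeR). ZNF132 changed by -2.90, ZNF382, known as a KRAB repressor of growth genes, by -1.89, and ZNF681 by -1.47. Counts without glucose were low, at 2, 6, 13 and 7 for ZNF132 and 15, 5, 10 and 20 for ZNF382. The call of ZNF382 was lost without replicate 1 or 4 of KMT2D-KO +Glc or 3 or 4 of KMT2D-KO -Glc (adjusted p 0.0512 to 0.0763, edgeR), and that of ZNF628 without replicate 4 of KMT2D-KO -Glc (0.0556). ZNF581 rose by 1.43, ZNF460 by 1.44, ZNF628 by 1.10 and ZNF784 by 1.07. These comparisons use the same libraries as the genotype comparisons, and their values are given side by side only. The imbalance of the knockout lines between the glucose conditions enters the KMT2D-KO comparison too, and its part was not tested. With the close pair of KMT2D-KO -Glc summed, 34 members passed and ZNF382 lost its call (adjusted p = 0.0671, edgeR). Without replicate 3 or 4 of KMT2D-KO -Glc 34 passed, without replicate 3 or 4 of KMT2D-KO +Glc 46 and 39.

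The knockout lines were compared with each other as well. With glucose, 6 of 191 members were lower in KO2 than in KO1, a share of 3.14% beside 7.32% of 21850 genes, and 3 were higher, a share of 1.57% beside 7.40% (edgeR). ZNF558 was at 5.84 and 8.80 CPM in KO1 and 2.90 and 5.69 CPM in KO2 (log2 difference -0.74, SE 0.17, adjusted p = 0.00517, edgeR), and both lines lay below KMT2D-WT. That call was lost without replicate 2 or 3 of KMT2D-KO (adjusted p 0.0741 and 0.10, edgeR). ZNF780B, ZNF524 and ZNF585A were lower in KO2 by 0.61, 0.58 and 0.53, and ZNF837, ZNF431 and ZNF587B were higher by 0.80, 0.59 and 0.51. Each of these 6 calls was lost without at least 1 KMT2D-KO library (adjusted p 0.0563 to 0.510, edgeR). The difference of ZNF524 was -0.33 without replicate 3 and that of ZNF837 was 0.48 without replicate 2 of KMT2D-KO. Leaving out single libraries gave 2 to 14 members: 4 without replicate 1, 3 without replicate 2, 3 without replicate 3 and 2 without replicate 4 of KMT2D-KO +Glc, and 14 without replicate 3 of KMT2D-WT +Glc.

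Along the chromosome the members fell into 17 clusters, where a new cluster began more than 1 Mb after the last, and 5 of the clusters held 1 member. The largest was the last, at chr19:55476617-58481230 with 60 members. It was the cluster with the most increases without glucose, 9 of 46 tested members, beside 10 decreases, and its median was -0.16. As shares of the 46, both counts were under the 25.9% and 24.9% of all genes. Its neighbour at chr19:51571283-53580269, with 42 members, had 10 decreases among 19 tested (median -0.41). At chr19:36182276-37817300, 12 of 21 tested members were lower (median -0.45), and at chr19:43525497-45076587, which holds ZNF112, ZNF234, ZNF235 and ZNF284, 8 of 19 were lower and 1 higher (median -0.56). In the small cluster at chr19:34542462-34964229, 4 of 6 tested members were lower without glucose (median -1.11), and the median with glucose was -0.23. At chr19:19668796-24129968, the cluster next to the centromere with 42 members, 18 were tested and 7 were lower and 2 higher (median -0.30). Near-identical neighbours can share reads in such clusters, and how far this touched single genes was not tested.

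**Figure D5:**
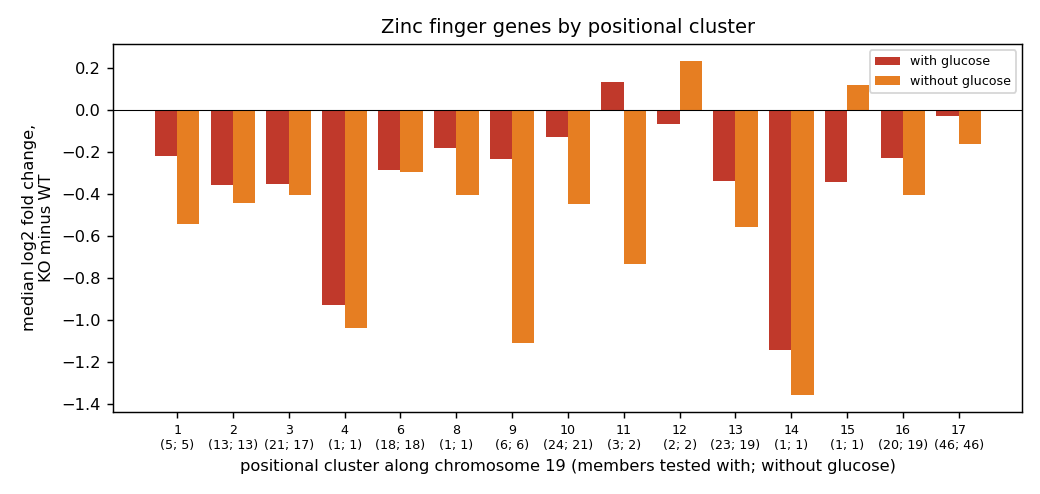
Median log2 fold change of the tested members, KMT2D-KO minus KMT2D-WT (vertical axis), in each positional cluster in order along chromosome 19 (horizontal axis, with the numbers of members tested with and without glucose), with glucose (red) and without (orange). Clusters of 1 member show a single gene. Among the 7 clusters with 10 or more members tested without glucose, medians without glucose lie between -0.16 and -0.56.

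The proteins with which KRAB zinc finger proteins work, and those of H3K9 and DNA methylation, were read from a list of 30 genes, all tested. With glucose 7 were lower and 3 higher (23.3%, beside 11.7% of all genes, and 10%, beside 13.0%), with a median of -0.16. Without glucose 12 were lower and 4 higher (40%, beside 24.9%, and 13.3%, beside 25.9%), with a median of -0.25. TRIM28, the corepressor itself, was lower in both, by 0.36 (adjusted p = 0.0128, edgeR) and by 0.34 (adjusted p = 0.0019, edgeR). MORC2, which acts with the HUSH complex, fell by 0.81 and 1.38, the H3K9 methyltransferase EHMT1 by 0.65 and 0.73, and TRIM24 by 0.81 and 0.42. DNMT1, the maintenance DNA methyltransferase, fell by 0.54 and 0.40, and its partner UHRF1 by 0.73 and 0.78. The HUSH subunit PPHLN1 rose by 0.37 and 0.44, and the chromatin remodeller ATRX by 0.50 and 0.65. SUMO2 passed with glucose (-0.28, adjusted p = 0.04485, edgeR) and not without it (0.02). Genes that passed without glucose and not with it were CBX5 (HP1 alpha), which changed by -0.68, TASOR by -0.65, SUV39H1 by -0.51, SUV39H2 by -0.27, DNMT3A by -0.83, DNMT3B by -0.40 and HDAC1 by 0.20 (0.16 with glucose). Without glucose the adjusted p (edgeR) was 0.0339 for HDAC1 and 0.0262 for SUV39H2. Whether these changes differed between the conditions is not reported for these genes. Calls of single genes in this list were not read from the fits with libraries left out or close pairs summed, so their stability is not known. SETDB1, at 25.9 CPM in KMT2D-WT and 30.4 CPM in KMT2D-KO with glucose, passed in neither condition (adjusted p = 0.165 and 0.0571, edgeR).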

How the data were processed

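Each library came with 1 table of read counts per gene, which the authors made by aligning reads with HISAT2 to GRCh38 (hg38) and counting exonic reads by gene name with featureCounts 2.0.3 and Ensembl 102. Per the file headers, counting ignored strand and kept primary alignments, and both mates were counted in 4 libraries. The deposited counts were used as they stand. Low counts were filtered (filterByExpr, minimum 10), scaled by TMM and tested with edgeR 4.0.16 in R 4.3.3 (quasi-likelihood, experiment as covariate, Benjamini-Hochberg over all genes tested, threshold 0.05). The study names DESeq2 and states no design for it, so DESeq2 1.42.0, with and without the covariate, served as an alternative. Fold changes are log2. CPM used TMM over 14 libraries; per-library medians used log2 of CPM plus 0.5. The members and gene lists were chosen with earlier results of these data known. Named genes were the 8 largest changes per direction (4 outside the genotype comparisons) that passed, kept their sign in both experiments and averaged at least 1 CPM, plus the 8 highest levels per kb; other genes were chosen after their values were seen. KRAB, SCAN and finger motifs were searched in GENCODE 44 coding sequences, and promoters came from RefSeq (GRCh38.p14). The main edgeR fit of each comparison was run on simulated counts with known changes, and the alternatives were not. The simulated libraries were independent of each other, so that run does not cover the close pairs or the imbalance of the knockout lines. Pairing came from the experiment named in the labels. Alternatives covered normalization, filters, offsets for exonic length and GC, each library left out, single experiments and summed close pairs. Counting intervals cover counting error only. Some items of the gene lists are not reported here.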

Additional observations from a re-analysis of the deposited data

Results flagged for a closer look

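Among named members, 3 values of single libraries stood apart from the other 3 of their group by Dixon's test. The test flags about 1 in 20 groups of independent, like libraries by chance. Many genes were searched, so some flags are to be expected at that rate. In KMT2D-KO -Glc, replicates 3 and 4 were a close pair, and replicates 2, 3 and 4 lay nearer KO2 and replicate 1 nearer KO1. The rate of 1 in 20 therefore cannot be taken for that group. ZNF114 had 1.76 CPM in replicate 1 of KMT2D-KO -Glc, under 2.26 to 2.36 CPM in the others. ZNF628 had 10.2 CPM in the same library, against 23.7 to 25 CPM. ZNF333 had 3.22 CPM in replicate 3 of KMT2D-KO +Glc, above 2.55 to 2.66 CPM.

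The genotype effect differed between the glucose conditions by the interaction test (edgeR) for 8 named members. The log2 difference was -2.61 for ZNF321P, -2.21 for ZNF132, -1.92 for ZNF547, -1.59 for ZNF563, 1.75 for ZNF460, 1.30 for ZNF581, 1.19 for ZNF628 and 1.04 for ZNF93. With the close pairs of experiment 2 summed, the calls of ZNF132 and ZNF581 held and the other 6 were lost. ZNF132 had only 2, 6, 13 and 7 counts in KMT2D-KO -Glc.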

How the results depend on the processing

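The members' median stayed below 0 in both genotype comparisons under every alternative run. Without the replicate block (the experiment, which pairs the libraries), 5 members were lower and 0 higher with glucose by edgeR (median -0.30, gap to genes of like length -0.30; 0 of the higher at an unadjusted p under 0.05), 35 and 5 without glucose, 0 and 0 in the interaction (17 and 7 at an unadjusted p under 0.05), 0 for deprivation in KMT2D-WT (14), 21 in KMT2D-KO and 0 between lines (0). DESeq2 without experiment called 0 higher with glucose (median -0.28, gap -0.30) and 41 and 6 without. Experiment 1 alone gave a median of -0.11 and a gap of -0.092 with glucose, a median of -0.38 in the interaction and of 0.0032 in KMT2D-WT. Its 0 and 0 calls in the interaction and 0 in KMT2D-KO say nothing about stability, as few libraries remain. Experiment 2 alone gave 12 and 1 with glucose (median -0.29, gap -0.30) and 28 higher without. Library size alone gave 6 higher and a median of -0.59 without glucose, and summed close pairs 21 and 2, with 3 and 1 in the interaction, 0 in KMT2D-WT and 34 in KMT2D-KO. The GC offsets and the summed pairs outside the genotype comparison were chosen after seeing the data. DESeq2 with experiment gave 31 and 14 in the interaction and 45 in KMT2D-WT. The offsets for length, length and GC, and GC gave 18, 18 and 16 lower and 14 higher each in the interaction (medians -0.07, -0.06 and -0.09). The GC offset moved the KMT2D-WT median to -0.26, and the length offset the KMT2D-KO median to -0.18. No filter gave 32 in KMT2D-WT.

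Without 1 library, numbers ran from 11 to 28 lower and 1 to 3 higher with glucose (medians -0.29 to -0.17, gaps -0.31 to -0.17) and from 41 to 93 and 5 to 25 without (medians -0.40 to -0.29, gaps -0.36 to -0.25). They ran from 5 to 33 and 3 to 20 in the interaction (-0.22 to -0.10), 0 to 81 in KMT2D-WT (-0.15 to -0.07), 34 to 86 in KMT2D-KO (-0.40 to -0.22) and 2 to 14 between lines. The 11 or 12 lower members with glucose came without replicate 1, 2 or 3 of KMT2D-WT. Where 1 KMT2D-WT library was left in an experiment, the fit assumed that it varied like the rest.

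Of named members, 3 of 10 with glucose and 9 of 16 without kept their call under every alternative, and 0 of 8 in the interaction. For deprivation it was 0 of 8 in KMT2D-WT and 0 of 8 in KMT2D-KO, and between lines 0 of 7. KMT2D with glucose turned from -0.02 to 0.016 (offset for length and GC), 0.041 (experiment 2 alone), and 0.04, 0.11 and 0.18 without replicate 1 of KMT2D-WT and replicates 1 and 3 of KMT2D-KO (range without 1 library -0.33 to 0.18). Depth limits members at a few counts, such as ZNF737. Causes of these shifts were not tested.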
